A study of Homo sapiens with 4 samples.

Results

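Gene-desert regions were taken as stretches of open chromatin that carried a peak in all 4 libraries and lay more than 200 kb from the body of any protein-coding gene on hg38. Overlapping peaks of the libraries on chromosomes 1 to 22 were merged into 71853 regions, 34809 of which had a peak in every library, and 1578 of those (4.53%) met the distance rule. The peaks came from ATAC-seq, in which the transposase Tn5 cuts and tags accessible DNA, of AMO1 cells, an established line of malignant plasma cells (multiple myeloma). There was 1 library in each of 4 groups, called here by their vector and title: IFN PHF19 overexpression, IFN empty vector, PHF19 overexpression and empty vector. The PHF19 overexpression groups were transfected with PHF19 plasmids and the empty vector groups, of genotype WT, with the empty PCDH vector. All cells were thawed live and treated with DNase I before the nuclei met Tn5, and the labels do not say what the title prefix IFN stands for, nor whether the transfected cells were 1 clone or a pool. The libraries rested on 16.4, 65.9, 18.2 and 27.4 M (mega) fragments for IFN PHF19 overexpression, IFN empty vector, PHF19 overexpression and empty vector.

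Gene deserts are long stretches without protein-coding genes. Many flank genes that control development, and they can hold enhancers that act on such a gene over a long distance, start sites of long non-coding RNAs (lncRNAs) and precursors of microRNAs. PHF19 belongs to the Polycomb-like family and is a partner of PRC2, which places a repressive methyl mark on histone H3, often at silent developmental genes. Which gene a desert region acts on was not measured here, and neighbouring genes are named to place a region.

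Height is the tallest fragment pileup in a region, as the authors' peak caller gave it, divided by the fragments of the library in M. A log2 ratio compares the heights of 2 libraries and was centred on the median ratio of all 34809 regions, which before centring was -0.11 for PHF19 overexpression over empty vector, 0.14 for IFN PHF19 overexpression over IFN empty vector, -0.11 for IFN empty vector over empty vector and 0.11 for IFN PHF19 overexpression over PHF19 overexpression. With 1 library per group there was no replicate error, and calls at 2-fold carry no test. An additive fit of vector and IFN prefix over the 4 libraries, which leaves 1 residual degree of freedom, is given beside the counts. The 95% intervals of single regions are exact intervals for a ratio of 2 counts and cover counting error only, and those of medians and shares describe the spread over regions, which are not replicates. The IFN empty vector library was the deepest and its file header names another project folder than the other 3, so its depth and folder cannot be told apart from the IFN prefix among empty vector cells, nor from the vector in the IFN-prefixed PHF19 pair, where 16.4 M fragments stand against 65.9 M. A narrow peak in PHF19 was present in IFN PHF19 overexpression and PHF19 overexpression cells at 7.33 and 7.90 fragments per M, and no such peak was listed in the IFN empty vector and empty vector libraries. All 12 plasma cell markers had a peak within 1000 bp of a gene end in every library, against 2 to 6 of 10 T and NK cell markers, 2 of 8 myeloid markers (ITGAM and S100A8) and 4 to 6 of 8 markers of stroma and epithelium. The part of other cells in the results was not tested.

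The microRNA genes closest to desert regions are shown because 1 of them lay inside a region of similar height in all libraries and another beside one of the regions that stood lowest with PHF19. Of 102 microRNA genes in the deserts that held a region, 3 lay within 1 kb of one. MIR148A, whose product has been reported to promote plasma cell differentiation in mouse B cells, lay wholly inside a region on chromosome 7, MIR7977 lay 288 bp from a region on chromosome 3, and MIR3660 lay 689 bp from a region on chromosome 5. The mature sequences, from RefSeq on GRCh38.p14, are given 5′ to 3′ with the seed (bases 2 to 8) in capitals, and the 3 seeds differ.
hsa-miR-148a-3p, chr7:25949922-25949943, minus strand: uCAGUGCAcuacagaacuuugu
hsa-miR-7977, chr3:176515103-176515120, plus strand: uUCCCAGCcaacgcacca
hsa-miR-3660, chr5:90016641-90016661, minus strand: aCUGACAGgagagcauuuuga

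The region around MIR148A, chr7:25949433-25952000, had heights of 6.05 in IFN PHF19 overexpression, 6.01 in IFN empty vector, 6.42 in PHF19 overexpression and 6.87 fragments per M in empty vector. The libraries lay close together, with log2 ratios for PHF19 of -0.13 (95% interval -0.46 to 0.19) in the IFN-prefixed pair and 0.02 (-0.33 to 0.36) in the unprefixed pair. Beside MIR3660, a microRNA gene between MEF2C and CETN3, the region chr5:90014154-90015932 had 1.04 in IFN PHF19 overexpression, 4.95 in IFN empty vector, 1.15 in PHF19 overexpression and 3.73 fragments per M in empty vector. Both PHF19 libraries were far below both empty vector libraries there, with log2 ratios of -2.39 in the IFN-prefixed pair and -1.58 in the unprefixed pair. The region next to MIR7977 had log2 ratios of -0.03 in the IFN-prefixed pair and -0.84 in the unprefixed pair.

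By the distance rule no promoter of a protein-coding gene can lie in a desert region, and the promoters found there were those of lncRNAs. RefSeq promoter windows, from 250 bases before to 50 bases after a start, lay wholly inside a desert region in 35 cases, for 32 genes in 31 regions, and all 35 belonged to lncRNA genes. The 4 printed here were picked after their values were seen: those of PURPL, LINC00355 and LINC00662 lie in the tallest of these regions with named genes, and that of LINC03000 lies in a region that stood lower with PHF19. The sequences are from RefSeq on GRCh38.p14, 5′ to 3′ on the strand of the gene, with capitals for the copies of CCGGAA (bound by ETS factors), of CCGCCC (the GC box read on the opposite strand) and of TTTATA (the TATA box read on the opposite strand).
PURPL, chr5:27472042-27472341, plus strand: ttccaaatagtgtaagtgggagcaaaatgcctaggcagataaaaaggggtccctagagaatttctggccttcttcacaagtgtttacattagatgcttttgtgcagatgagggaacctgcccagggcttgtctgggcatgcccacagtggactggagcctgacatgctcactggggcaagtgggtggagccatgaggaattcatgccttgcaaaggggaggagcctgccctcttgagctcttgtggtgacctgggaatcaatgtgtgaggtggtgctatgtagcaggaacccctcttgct
LINC00355, chr13:64075962-64076261, minus strand: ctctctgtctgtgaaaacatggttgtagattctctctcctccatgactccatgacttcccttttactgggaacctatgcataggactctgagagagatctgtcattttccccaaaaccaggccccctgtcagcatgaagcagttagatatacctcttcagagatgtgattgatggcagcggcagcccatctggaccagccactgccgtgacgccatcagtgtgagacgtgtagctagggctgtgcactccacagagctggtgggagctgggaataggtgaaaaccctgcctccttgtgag
LINC00662, chr19:27793891-27794190, minus strand: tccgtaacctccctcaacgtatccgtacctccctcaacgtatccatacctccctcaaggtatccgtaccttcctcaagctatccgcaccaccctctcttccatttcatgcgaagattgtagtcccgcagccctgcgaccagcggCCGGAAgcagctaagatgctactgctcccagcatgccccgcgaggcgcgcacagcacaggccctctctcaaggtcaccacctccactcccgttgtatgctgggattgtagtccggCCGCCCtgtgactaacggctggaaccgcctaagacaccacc
LINC03000, chr5:164296455-164296754, plus strand: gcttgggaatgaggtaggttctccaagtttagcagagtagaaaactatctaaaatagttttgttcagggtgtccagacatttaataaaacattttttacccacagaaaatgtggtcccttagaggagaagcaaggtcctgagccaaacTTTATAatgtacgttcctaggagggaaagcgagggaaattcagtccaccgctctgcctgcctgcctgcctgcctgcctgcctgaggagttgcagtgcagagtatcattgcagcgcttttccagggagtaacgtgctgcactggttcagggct

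The PURPL window held no CpG and that of LINC00662 held 20, so start sites of both CpG-poor and CpG-rich kinds were open in deserts. PURPL is an lncRNA gene induced by p53. The region at its start, chr5:27471246-27473142, had heights of 9.65 in IFN PHF19 overexpression, 11.6 in IFN empty vector, 9.77 in PHF19 overexpression and 10.9 fragments per M in empty vector. The LINC00662 region had 8.67, 8.62, 8.56 and 11.5, and the LINC00355 region 8.49, 8.98, 7.13 and 10.3 fragments per M, in the same order of libraries. At these 3 starts every log2 ratio for PHF19 lay between -0.41 and -0.04. At LINC03000 the heights were 1.77 in IFN PHF19 overexpression, 3.88 in IFN empty vector, 2.36 in PHF19 overexpression and 3.62 fragments per M in empty vector, with log2 ratios of -1.27 (-1.88 to -0.71) in the IFN-prefixed pair and -0.50 (-1.05 to 0.03) in the unprefixed pair.

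Short motifs were counted on both strands of the 35 windows. The GC box GGGCGG was present in 13 (37.1%), against 45.0% of all 33725 promoter windows and 25.6% of the 12569 lncRNA windows. The AP-1 motif TGANTCA was present in 6 (17.1%), against 7.67% and 10.3%, the E-box CAGGTG in 10 (28.6%), against 20.7% and 21.6%, and the TATA box TATAAA in 7 (20%), against 11.6% and 15.0%. CCAAT was present in 7 (20%), against 34.4% and 34.4%, and the ETS motif CCGGAA in 2 (5.71%), against 17.3% and 10.6%. Matches of different motifs were counted each on its own, even where they overlap, and a match describes the letters of the window and not binding. The genome sequence of the other regions was not used here.

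Desert regions were far from protein-coding genes but not from genes of other kinds. Their distance from a protein-coding gene body ran from 200.03 to 4566 kb with a median of 367 kb, and 478 lay more than 500 kb and 111 more than 1 Mb away. The body of some annotated gene covered 595 of them (37.7%), and 522 (33.1%) lay in the body of an lncRNA gene. That share was 19.1% for the other regions open in all libraries and 31.0% for those 50 to 200 kb from a protein-coding gene, and lncRNA bodies made up 19.6% of the desert territory itself. Counting every annotated gene, 58 regions lay more than 200 kb from any. Among the regions close to the limit were chr2:67840214-67840944 at 200.2 kb from C1D, a gene for a cofactor of the nuclear exosome, on the inside, with 2.81, 2.02, 2.19 and 2.12 fragments per M in IFN PHF19 overexpression, IFN empty vector, PHF19 overexpression and empty vector, and on the outside a region 199.9 kb from PRKCQ, a T cell kinase gene, with 1.10, 0.683, 0.768 and 1.10 fragments per M.

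The antigen receptor loci met the rule as well, because the reference table does not class their segments as protein-coding. Of the 1578 regions 46 lay within 200 kb of an immunoglobulin or T cell receptor segment, 38 on chromosome 14, 5 on chromosome 7 and 3 on chromosome 2, and 28 overlapped a segment. The stretch beyond TMEM121 at the end of chromosome 14, which holds the immunoglobulin heavy chain locus, had 33 regions, the largest number in any desert. Its tallest region, chr14:106830662-106831753, had 15.2 fragments per M in IFN PHF19 overexpression, 10.8 in IFN empty vector, 12.8 in PHF19 overexpression and 12.5 in empty vector.

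Chromosome 2 held the most desert regions, 238, followed by chromosome 5 with 174, chromosome 8 with 116, chromosome 3 with 105 and chromosome 4 with 101. As a share of the regions open in all libraries they made up 8.78% on chromosome 5 and 8.75% on chromosome 21, against 0.536% on chromosome 19, which had 9. Of 802 stretches longer than 400 kb between neighbouring protein-coding genes, 478 (59.6%) held at least 1 region. The parts of these 802 stretches more than 200 kb from a gene made up 677.9 Mb. They held 1534 regions, a density of 2.26 per Mb. Desert regions lay in 481 deserts, of which 165 held 1 region, 106 held at least 5 and 23 held at least 10. The 106 held 825 of the 1578 regions. These counts do not allow for the length of the deserts.

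Deserts were also counted by the genes beside them. Of 70 long deserts flanked by a listed developmental regulator 49 (70%) held a region, of 95 flanked by a listed cell adhesion or neuronal receptor gene 73 (76.8%), and of 17 flanked by a listed lymphoid or plasma cell regulator 12 (70.6%), beside 59.6% of all 802. These shares were not matched for the length of the deserts, and the part of length in them was not tested. ID2, an inhibitor of E proteins in lymphocytes and other cells, flanked the desert with 26 regions. MEF2C, a MADS-box factor of muscle, neurons and B cells, flanked 19 regions on its 2 sides, and CDH9, a classical cadherin, flanked 21. NCAM2, a neural adhesion gene, flanked 19, NR2F2, an orphan nuclear receptor gene, 17 and SOX11, a neural transcription factor gene, 13. Desert regions between 2 flanks of which at least 1 was lymphoid were the tallest of the 3 groups, with a median of the mean height of 2.54 fragments per M (81 regions), against 1.5 for developmental regulators (206) and 1.21 for adhesion genes (277).

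Desert regions were lower than regions near genes in every library. Their median height was 1.59 fragments per M in IFN PHF19 overexpression, 1.55 in IFN empty vector, 1.37 in PHF19 overexpression and 1.46 in empty vector, against 2.93, 2.81, 2.63 and 2.92 for all other regions. In the raw pileups these medians are 26, 102, 25 and 40 fragments, so that a single desert region carries a wide counting error outside the IFN empty vector library. From 200 to 300 kb the medians were 1.77, 1.61, 1.48 and 1.46 fragments per M in the same order of libraries, against 1.40, 1.55, 1.21 and 1.39 fragments per M for the 111 regions beyond 1 Mb. Over the local background, by the fold enrichment that the authors' peak caller wrote for each peak, they stood lower than the others in 3 libraries and higher in IFN empty vector: the medians were 7.53 in IFN PHF19 overexpression, 9.04 in IFN empty vector, 6.98 in PHF19 overexpression and 7.79 in empty vector, against 7.99, 8.56, 7.66 and 8.15.

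**Figure D1:**
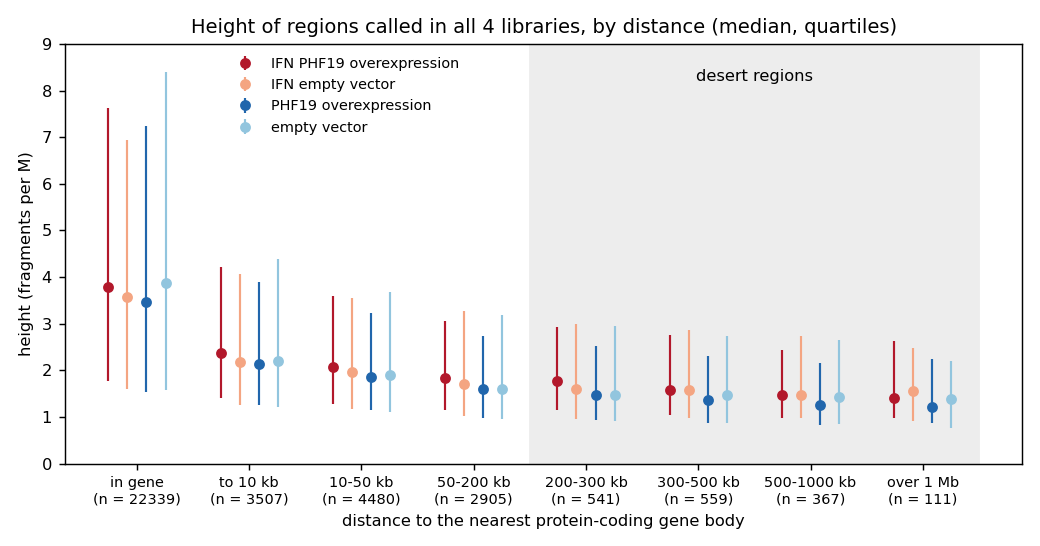
Height in fragments per M (y axis, linear) of the regions called in all 4 libraries, by distance to the nearest protein-coding gene body (x axis, with the number of regions). Points are medians and bars quartiles of IFN PHF19 overexpression, IFN empty vector, PHF19 overexpression and empty vector. Medians are lower in the shaded desert classes than near genes in each library, where they lie between 1.21 and 1.77 fragments per M. Beyond 1 Mb the IFN empty vector median is higher than at 500 to 1000 kb (1.55 against 1.47).

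They were also narrower, with a median width of 973.5 bp against 1116 bp, and 45 (2.85%) were wider than 2 kb, against 8.12% of the others. The summits of the 4 libraries fell within 50 bp of each other in 36.9% of desert regions and in 45.6% of the others. Calls differed more from library to library: of 5244 merged regions beyond 200 kb, 30.1% (95% Wilson interval 28.9 to 31.3) had a peak in all 4 libraries, against 49.9% of the 66609 nearer ones. The regions called in 1 library alone were mostly those of the deepest one, 1597 of 1962 (81.4%) in IFN empty vector, and the same held for the nearer regions, with 13979 of 16981 (82.3%).

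Tall desert regions were few. A total of 29 (1.84%) had a mean height of at least 10 fragments per M, against 10.6% of the other regions. The tallest, chr7:25861815-25862996, lies between NPVF, a neuropeptide gene, and NFE2L3, a bZIP factor gene 289 kb away, and 86.9 kb from MIR148A. It had 24.4 fragments per M in IFN PHF19 overexpression, 22 in IFN empty vector, 21.4 in PHF19 overexpression and 28.0 in empty vector, and its log2 ratio for PHF19 was 0.01 (-0.15 to 0.17) in the IFN-prefixed pair and -0.27 (-0.45 to -0.10) in the unprefixed pair.

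The next was chr5:89313087-89314579 in MEF2C-AS1, the antisense lncRNA gene beside MEF2C, 409 kb from MEF2C. It had 17.5 fragments per M in IFN PHF19 overexpression, 28.0 in IFN empty vector, 16.2 in PHF19 overexpression and 33.3 in empty vector. Both PHF19 libraries were below both empty vector libraries, with log2 ratios of -0.82 (-1.0 to -0.64) and -0.93 (-1.12 to -0.74). Relative to the regions within 2.5 Mb of it the ratios were -0.31 and -0.33, since the whole neighbourhood stood lower.

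At some other tall regions the counting intervals included 0 in both pairs, and 2 of them are given here. The region chr5:12573957-12575162 between CTNND2, a neuronal catenin gene, and DNAH5, an axonemal dynein gene, had 22.9, 20.7, 20.6 and 24.7 fragments per M in IFN PHF19 overexpression, IFN empty vector, PHF19 overexpression and empty vector. The region chr11:115924794-115925772, 420 kb from CADM1, a cell adhesion gene, had 17.4, 14.1, 17 and 16.7 in the same order. Their log2 ratios for PHF19 lay between -0.15 and 0.16. Centred on the regions within 2.5 Mb, the region near CTNND2 had 0.20 in the IFN-prefixed and -0.12 in the unprefixed pair. The chromosome 11 region then had -0.10 and -0.19. The region chr5:56588543-56589911, 226 kb from the kinase gene MAP3K1, had 13.1, 15.8, 13.5 and 20.5 fragments per M, and was lower with PHF19 by -0.40 (-0.62 to -0.19) in the IFN-prefixed and -0.49 (-0.71 to -0.27) in the unprefixed pair.

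The regions farthest from a protein-coding gene sit on the short arm of chromosome 22 and beside centromeres. At 4566 kb from OR11H1, an olfactory receptor gene, chr22:10961115-10961780 had 1.53, 1.87, 1.65 and 2.05 fragments per M in IFN PHF19 overexpression, IFN empty vector, PHF19 overexpression and empty vector. On the same arm chr22:11953799-11954543 had 0.489, 2.18, 0.713 and 1.61 fragments per M. Its log2 ratios for PHF19 were -2.30 (-3.54 to -1.28) in the IFN-prefixed and -1.06 (-2.07 to -0.14) in the unprefixed pair. The summits held 8 fragments in IFN PHF19 overexpression, the lowest pileup called in that library, and 13 in PHF19 overexpression. Repeats are common there, and the treatment of reads that align to several places is not given in the sources used here. Outside such places the farthest was chr4:33184368-33185197, 2038 kb from PCDH7, a protocadherin gene, with 3.05, 2.47, 1.70 and 1.94 fragments per M. The widest, chr20:29752311-29755875, spanned 3565 bp, and the next, chr1:199080376-199083822 of 3447 bp, lay 323 kb from PTPRC, which encodes the leukocyte antigen CD45, with 2.75, 3.84, 2.19 and 3.87 fragments per M.

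The first comparison set PHF19 overexpression against empty vector, in the IFN-prefixed pair and in the unprefixed pair, which share no library. As a group the desert regions stood near the centre of all regions: their median log2 ratio was -0.09 (95% interval over regions -0.13 to -0.06) in the IFN-prefixed pair, where it was 0.043 without centring, and 0.02 (-0.02 to 0.06) in the unprefixed pair, where it was -0.093 without centring, -0.10 centred within height classes and -0.057 for mean heights from 1 fragment per M up. The sign of the group median thus turned in both pairs with the centring. In the IFN-prefixed pair 56 (3.55%) were at least 2-fold higher and 106 (6.72%) at least 2-fold lower with PHF19, beside 2.12% and 3.05% of all regions. In the unprefixed pair 85 (5.39%) were at least 2-fold higher and 82 (5.2%) at least 2-fold lower, beside 3.56% and 2.51%. By counting intervals, 127 lay above and 313 below 0 in the IFN-prefixed pair, beside 12.2% and 13.5% of all regions, and 146 above and 211 below 0 in the unprefixed pair, beside 10.3% and 12.7%. Counting error widens the ratios of low regions most, so the 2-fold shares were also read by height.

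Among tall regions, in deserts and outside them alike, the lower side held most of those past 2-fold. Among desert regions with a mean height of at least 3 fragments per M (327 regions), the median log2 ratio was -0.29 (-0.36 to -0.23) in the IFN-prefixed pair and -0.25 (-0.31 to -0.19) in the unprefixed pair. For regions of the same height class 10 to 200 kb from a gene (2100) the medians were -0.13 and -0.13, and for all other regions (15946) they were -0.02 and -0.09. In the IFN-prefixed pair 31 of the 327 (9.48%) were at least 2-fold lower with PHF19 and 2 (0.612%) at least 2-fold higher, against 1.87% and 0.326% of the other regions of that height. In the unprefixed pair 28 (8.56%) were at least 2-fold lower and 3 (0.917%) at least 2-fold higher, against 1.73% and 0.364%. This open class is not of equal height: 194 of the 327 desert regions were at 3 to 5 fragments per M, against 5263 of the 15946 others.

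Within narrower classes the order was the same. At 3 to 5 fragments per M, 10.8% of desert regions were at least 2-fold lower in each pair, against 3.93% of the others in the IFN-prefixed and 3.23% in the unprefixed pair. At 5 to 10 fragments per M (104 desert regions) the shares were 8.65% in the IFN-prefixed and 4.81% in the unprefixed pair, against 0.922% and 1.02% of the others. Regions 10 to 200 kb from a gene had 6.27% and 5.26% at 3 to 5 fragments per M, and 3.17% and 2.92% at 5 to 10.

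Among all regions of at least 3 fragments per M, those 10 to 200 kb from a gene lay in between. Of them 4.76% and 4.10% were at least 2-fold lower in the IFN-prefixed and the unprefixed pair, and 0.286% and 0.476% at least 2-fold higher. Centred on the regions within 2.5 Mb, the shares of tall desert regions at least 2-fold lower were 7.38% and 5.85%. For tall regions 10 to 200 kb from a gene they were 3.48% and 3.24%, and for all other tall regions 1.46% and 1.42%. Desert regions below 3 fragments per M had medians of -0.03 in the IFN-prefixed and 0.12 in the unprefixed pair, close to the 0.03 and 0.16 of other regions of that height, and 6.0% and 4.32% were at least 2-fold lower, against 3.81% and 2.98%. At least 2-fold higher were 4.32% and 6.55%, against 3.64% and 6.35% of the other regions of that height. These differences between sets of regions were not tested.

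**Figure D2:**
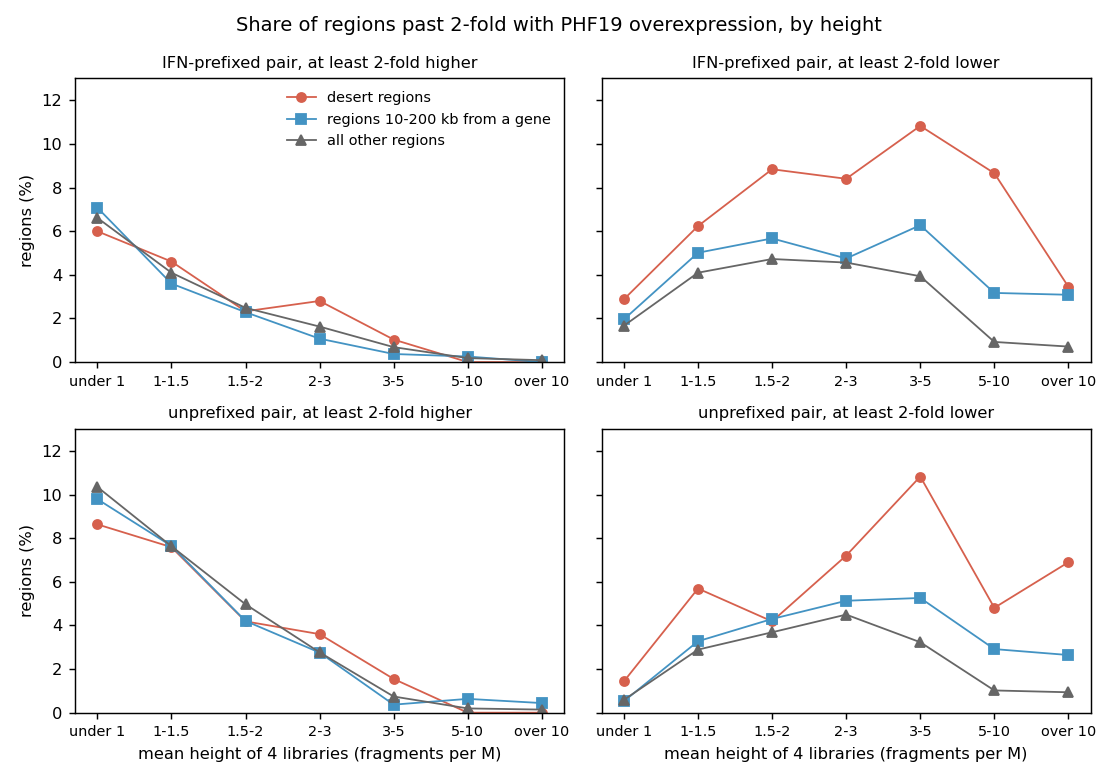
Percent of regions (y axis) at least 2-fold higher (left) or lower (right) with PHF19 overexpression, by the mean height over the 4 libraries in fragments per M (x axis), in the IFN-prefixed pair (top) and the unprefixed pair (bottom). Circles are desert regions, squares regions 10 to 200 kb from a protein-coding gene and triangles all other regions called in all libraries. On the lower side circles lie above triangles in every height class. At 3 to 5 fragments per M they show 10.8% in each pair, against 3.93% (IFN-prefixed) and 3.23% (unprefixed) of all other regions. Circles also lie above squares, except at 1.5 to 2 fragments per M in the unprefixed pair (4.19% against 4.30%).

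The ratios of the pairs ran together over desert regions as over all regions. Across the 1578 regions Pearson's r between the log2 ratios of the pairs was 0.67 and Spearman's rho 0.64, beside 0.63 and 0.57 across all regions, as a description over regions that share a library within each pair. The sign was the same in 73.8% of desert regions and 69.3% of all. At least 2-fold in both pairs, 24 desert regions (1.52%) were higher and 42 (2.66%) lower with PHF19, beside 0.876% and 1.39% of all regions. Of desert regions below 3 fragments per M these shares were 1.76% and 2.08%, against 1.52% and 1.48% of other regions of that height. With intervals that kept to one side of 0 in both pairs, 59 (3.74%) were higher and 166 (10.5%) lower, beside 5.06% and 7.39%. In the additive fit with limma, 164 desert regions (10.4%) were higher and 226 (14.3%) lower with PHF19 at a Benjamini-Hochberg adjusted p under 0.05, beside 9.72% and 8.81% of all regions. That fit estimated no variance of a region's own and took it from the trend with height over all regions, so its p-values rest on how well the pairs match and not on replicate libraries. The 12 regions with the largest shifts named below were among those called. They were picked by the same ratios that the fit uses, so their calls add no support. The 42 lower regions lay in 37 deserts on 14 chromosomes and the 24 higher ones in 23 deserts on 10 chromosomes.

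**Figure D3:**
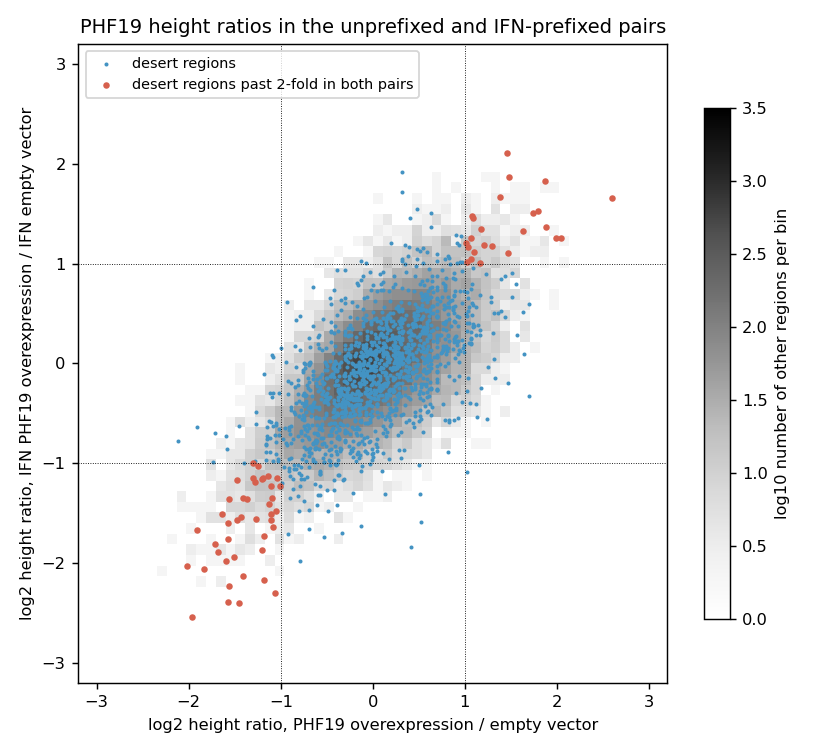
Log2 height ratio of PHF19 overexpression over empty vector in the unprefixed pair (x axis) and the IFN-prefixed pair (y axis), centred on all regions. Grey bins count the other regions called in all libraries, points are the 1578 desert regions, and the larger points are the 24 higher and 42 lower ones past 2-fold (dotted lines) in both pairs.

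The desert regions with the largest shift on the lower side in both pairs included 2 that are tall in empty vector cells. In the desert between RNF144A, a ubiquitin ligase gene, and ID2, inside the lncRNA gene LINC00299 and 447 kb from ID2, chr2:8234340-8235544 had 3.79 fragments per M in IFN PHF19 overexpression, 20.1 in IFN empty vector, 4.99 in PHF19 overexpression and 21.1 in empty vector. The PHF19 libraries lay far below the empty vector libraries, 5.84-fold lower in the IFN-prefixed pair (log2 ratio -2.55, -2.94 to -2.18) and 3.90-fold lower in the unprefixed pair (-1.96, -2.30 to -1.64). The raw pileups were 62 fragments in IFN PHF19 overexpression, 1324 in IFN empty vector, 91 in PHF19 overexpression and 577 in empty vector.

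A neighbour in the same lncRNA gene went the other way. The region chr2:8229660-8230268, 4071 bp from it, had 27.6 fragments per M in IFN PHF19 overexpression, 18.3 in IFN empty vector, 24.8 in PHF19 overexpression and 21.7 in empty vector. Here both PHF19 libraries were the higher ones, by 0.46 (0.30 to 0.61) and 0.30 (0.12 to 0.48) on the log2 scale. Centred on the regions within 2.5 Mb, these values were 0.31 and 0.10. On its other side, chr2:8238841-8240035 had 4.27 fragments per M in IFN PHF19 overexpression and 2.08 in PHF19 overexpression and no called peak in either empty vector library, so it is not counted among the 1578.

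Between ICE1, a gene for a subunit of the little elongation complex, and MED10, a Mediator subunit gene, chr5:6029563-6030699 had 3.73 fragments per M in IFN PHF19 overexpression, 14.1 in IFN empty vector, 4.01 in PHF19 overexpression and 15.5 in empty vector. It was lower with PHF19 by -2.06 (-2.46 to -1.68) in the IFN-prefixed pair and -1.84 (-2.22 to -1.48) in the unprefixed pair. The region chr5:40378031-40379314, 301 kb from PTGER4, a prostaglandin E2 receptor gene, had 1.28, 4.76, 1.10 and 4.82 fragments per M in IFN PHF19 overexpression, IFN empty vector, PHF19 overexpression and empty vector. Its log2 ratios were -2.03 (-2.74 to -1.39) and -2.02 (-2.78 to -1.34), the pair of values in which the smaller shift was the largest among desert regions.

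Next to GATA3, a T cell and developmental factor gene 294 kb away, chr10:8369399-8370229 had 1.28 fragments per M in IFN PHF19 overexpression, 4.31 in IFN empty vector, 1.04 in PHF19 overexpression and 3.62 in empty vector. Its log2 ratios were -1.89 in the IFN-prefixed and -1.68 in the unprefixed pair. GATA3 flanked 8 desert regions, 3 of them at least 2-fold lower in both pairs, beside 1.39% of all regions. The lower set was completed by chr4:189301412-189302233, between TRIML1 and FRG1, with log2 ratios of -1.81 and -1.71, and by chr10:37489109-37490599, between ANKRD30A, a breast antigen gene, and ZNF248, a zinc finger gene, with -1.67 and -1.91. In the PHF19 libraries these 2 regions rested on 9 to 12 fragments at the summit. Centred on the regions within 2.5 Mb, the 6 regions of the lower set had log2 ratios from -2.69 to -1.59 in the IFN-prefixed pair. In the unprefixed pair they had -2.17 to -1.39. Nearest to 0 then were the values of chr5:6029563-6030699 (-1.59 and -1.39), and farthest those of chr2:8234340-8235544 (-2.69 and -2.17).

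The 6 regions named on the higher side had under 1 fragment per M in both empty vector libraries. Between KIF4B, a kinesin gene, and SGCD, a sarcoglycan gene, chr5:155332411-155333345 had 3.11 fragments per M in IFN PHF19 overexpression, 0.895 in IFN empty vector, 3.90 in PHF19 overexpression and 0.694 in empty vector. It was 3.16-fold higher in the IFN-prefixed pair (log2 ratio 1.66, 1.09 to 2.23) and 6.08-fold higher in the unprefixed pair (2.60, 1.86 to 3.42). On chromosome 8, between LZTS1 and GFRA2, a receptor gene for neurturin, chr8:21370405-21371283 had 3.24, 0.683, 1.48 and 0.585 fragments per M in IFN PHF19 overexpression, IFN empty vector, PHF19 overexpression and empty vector. Its log2 ratios were 2.11 (1.51 to 2.71) and 1.46 (0.51 to 2.45).

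The other 4 of this set had 1.48 to 2.20 fragments per M in the PHF19 libraries and 0.438 to 0.658 in the empty vector libraries. They were chr4:11099904-11100689, between the adaptor gene CLNK and the heparan sulfate sulfotransferase gene HS3ST1, with log2 ratios of 1.83 in the IFN-prefixed and 1.87 in the unprefixed pair, chr10:131513979-131514820 next to TCERG1L with 1.52 and 1.80, chr5:165360582-165361927, 1617 kb from TENM2, a teneurin gene, with 1.51 and 1.74, and chr10:78406903-78407787, 350 kb from the ribosomal protein gene RPS24, with 1.87 and 1.49. At each of the 6 both PHF19 libraries were above both empty vector libraries, an order that the choice by both ratios largely fixed. These regions reached the required mean height of 1 fragment per M only through the PHF19 libraries.

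**Figure D4:**
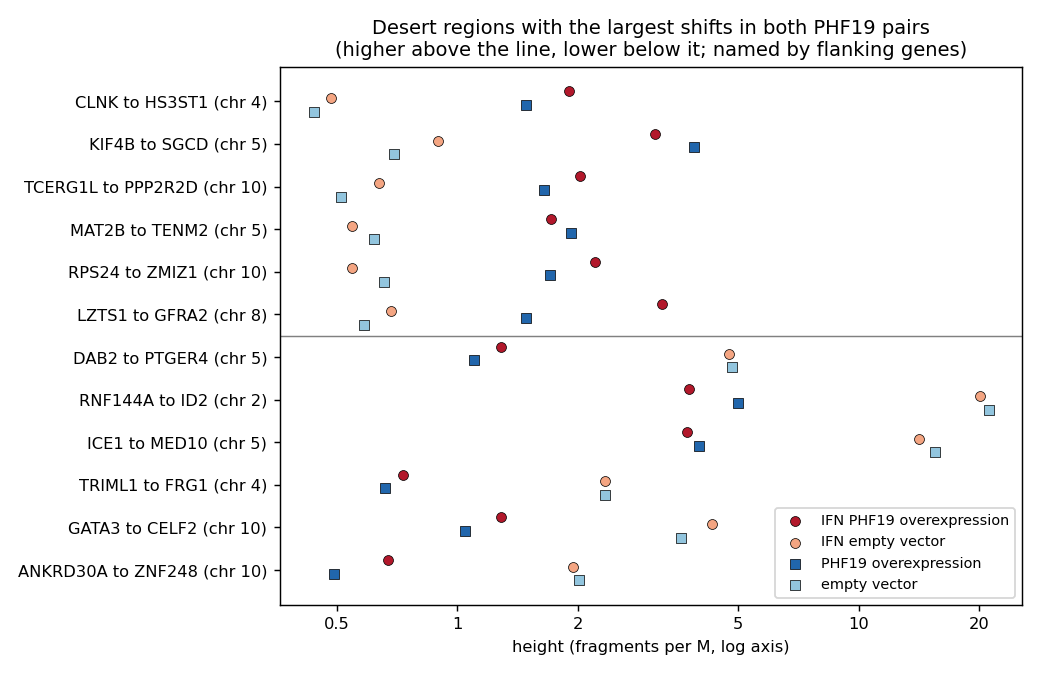
Height in fragments per M (x axis, log scale) of the 12 desert regions with the largest smaller log2 ratio of the same sign in both PHF19 pairs, named by their flanking genes (y axis). Circles are IFN PHF19 overexpression and IFN empty vector and squares PHF19 overexpression and empty vector. Dark points (PHF19) lie right of the pale points (empty vector) in the upper 6 regions and left of them in the lower 6. The choice of regions by both ratios largely fixed this order.

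The deserts with most regions differed from each other. In the RNF144A to ID2 desert 16 of 26 regions had a log2 ratio below 0 in the IFN-prefixed pair and 15 in the unprefixed pair, with medians of -0.19 and -0.15 and a range from -2.55 to 1.29 and from -1.96 to 0.91. Besides chr2:8234340-8235544, its region chr2:8378003-8378961 was also lower, with 0.489 fragments per M in IFN PHF19 overexpression, 2.35 in IFN empty vector, 0.933 in PHF19 overexpression and 2.78 in empty vector (log2 ratios -2.41 and -1.46). The value of 0.489 is the lowest in IFN PHF19 overexpression among all regions called in every library. The neighbourhood within 2.5 Mb stood at 0.15 and 0.21, and centred on it the medians of the desert were -0.34 and -0.37. The tall regions chr2:7665460-7666771 and chr2:8301826-8303911 stood between -0.33 and 0.00 in both pairs.

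In the MEF2C to CETN3 desert the shift was broad. Of its 18 regions 16 had a ratio below 0 in the IFN-prefixed and 15 in the unprefixed pair, with medians of -0.68 and -0.86. At least 2-fold lower were 3 and 5, beside 3.05% and 2.51% of all regions. All 9 regions in MEF2C-AS1 were below 0 in the IFN-prefixed pair, and 8 of them in the unprefixed pair. Centred on the regions within 2.5 Mb the desert's medians were -0.12 and -0.25, and the median of that neighbourhood itself was -0.56 and -0.64.

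**Figure D5:**
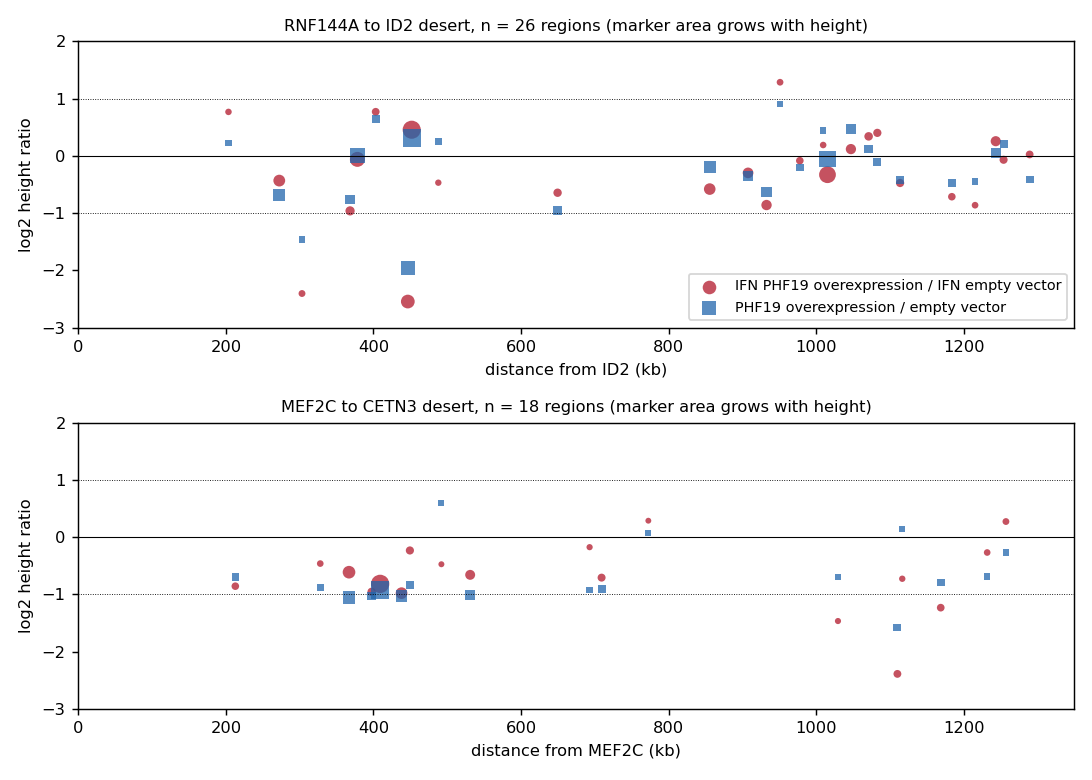
Log2 height ratio for PHF19 (y axis) of each desert region in the RNF144A to ID2 desert, by distance from ID2 in kb (top), and in the MEF2C to CETN3 desert, by distance from MEF2C in kb (bottom). Circles are the IFN-prefixed pair, squares the unprefixed pair, and the marker area grows with mean height. In the top panel 2 of 26 regions lie below -1 (dotted) in both pairs, with neighbours on either side of 0, while in the bottom panel 16 (circles) and 15 (squares) of 18 lie below 0.

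The 16 regions between MCTP2, a membrane protein gene, and NR2F2 had medians of -0.36 in the IFN-prefixed and -0.34 in the unprefixed pair. The 33 regions of the heavy chain locus had medians of 0.00 and 0.25, with 1 at least 2-fold lower in the IFN-prefixed pair and 3 at least 2-fold higher in the unprefixed pair. By flanking list, the 81 regions beside lymphoid and plasma cell regulators had medians of -0.26 and -0.25, with 9 at least 2-fold lower and 1 at least 2-fold higher in each pair. The 206 beside developmental regulators had -0.14 and -0.13, with 20 lower and 3 higher in the IFN-prefixed and 12 lower and 8 higher in the unprefixed pair. The 277 beside adhesion genes had -0.15 and 0.07, with 12 lower and 17 higher, and 8 lower and 17 higher. ID2 and MEF2C supply 45 of the 81 lymphoid regions, and the lists share genes. Of all regions 3.05% were at least 2-fold lower and 2.12% higher in the IFN-prefixed pair, and 2.51% and 3.56% in the unprefixed pair. Of all desert regions these shares were 6.72% and 3.55%, and 5.2% and 5.39%. The lymphoid list held the tallest regions, with a median of the mean height of 2.54 fragments per M. The part of height in its medians was not tested.

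Close neighbours did not always move together. For the 123 pairs of neighbouring desert regions within 10 kb of each other, the median absolute difference between their log2 ratios was 0.43 in the IFN-prefixed and 0.44 in the unprefixed pair, and for the 284 pairs more than 200 kb apart it was 0.57 and 0.60. The ratios were at least 2-fold apart in both PHF19 pairs in 3 of the 123 close pairs (2.44%), against 8.80% of those more than 200 kb apart and 6.93% of all 1097.

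The second comparison set the IFN-prefixed libraries against the unprefixed ones with the same vector. The desert regions were a little higher with the prefix in PHF19 overexpression cells, with a median log2 ratio of 0.07 (0.05 to 0.10), and in empty vector cells, with 0.18 (0.17 to 0.20). Without centring the medians were 0.18 and 0.070. Centred, regions 50 to 200 kb from a gene had medians of 0.05 and 0.14. Under 3 fragments per M, desert regions had 0.11 and 0.22, and all other regions 0.05 and 0.15. From 3 fragments per M up, desert regions had 0.03 and 0.08, and all other regions -0.03 and -0.12. Past 2-fold, 43 desert regions (2.72%) were higher and 13 (0.824%) lower in PHF19 overexpression cells, beside 0.994% and 0.399% of all regions. In empty vector cells 27 (1.71%) were higher and 0 lower, beside 0.623% and 0.023%. That share depended on low regions: it was 0.760% with the stricter q, 0.775% for mean heights from 1 fragment per M up and 0.887% with centring within height classes, while 4.32% of desert regions under 1 fragment per M passed 2-fold, against 2.56% of other regions of that height. By counting intervals, 65 lay above and 19 below 0 in PHF19 overexpression cells, beside 2.61% and 2.37% of all regions. In empty vector cells 201 lay above and 16 below 0, beside 6.07% and 13.4%. At heights of at least 3 fragments per M, 1 of 327 desert regions passed 2-fold with PHF19 and 0 with empty vector.

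Few regions were shared between the vectors in this comparison. Pearson's r across desert regions was 0.11, beside 0.16 across all regions. In both vectors 1 region was at least 2-fold higher (0.046% of all regions) and 0 were lower (0 of all), and 19 had intervals above 0 in both (1.2%, beside 0.503%), against 0 below 0 in both (beside 0.753%). The additive fit called 1 desert region higher and 1 lower with the prefix at an adjusted p under 0.05 (limma), beside 0.0689% and 0.0172% of all regions, and 129 and 23 at an unadjusted p under 0.05. The 1 region past 2-fold, chr13:60980958-60982263, lies between TDRD3, a Tudor domain gene, and PCDH20, a protocadherin gene. It had 2.20 fragments per M in IFN PHF19 overexpression and 0.988 in PHF19 overexpression (log2 ratio 1.05, 0.19 to 1.95), and 1.43 in IFN empty vector and 0.767 in empty vector (1.01, 0.31 to 1.76). Both IFN-prefixed libraries were above both unprefixed ones, an order that the choice by both ratios largely fixed.

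Next came chr2:121994177-121995260, 226 kb from TSN, the translin gene, with 2.38 fragments per M in IFN PHF19 overexpression and 1.15 in PHF19 overexpression, and 0.865 in IFN empty vector and 0.402 in empty vector, for log2 ratios of 0.94 and 1.22. It was also higher with PHF19, by 1.32 and 1.63 in the IFN-prefixed and unprefixed pairs. The region chr6:90940695-90941420, 354 kb from the kinase gene MAP3K7, had 3.73 and 2.14, and 2.73 and 1.57 fragments per M in the same order, for 0.69 and 0.91. The other 2 of the rule's 5 were chr7:25940475-25941476 in the MIR148A desert, with 0.84 and 0.84, and chr6:22954507-22955868 near HDGFL1, with 1.02 and 0.69. On the lower side the 5 regions of the rule had ratios between -0.69 and -0.32, and the interval of each included 0 in both vectors.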

How the data were processed

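The authors deposited 1 MACS2 2.1.2 peak list per library, called from paired fragments with no control library, duplicates kept and a q limit of 0.01, per the file headers. Tools named in the submitters' processing notes are bcl2fastq 2.17, Trimmomatic 0.38 and DiffBind, with the build hg38. The deposited pileup is an unscaled fragment signal at the summit, and the deposited fold enrichment is a ratio to local background; the -log10 q-value and -log10 p-value columns are the authors' scores per peak. For the aligner, read filters and Tn5 shift: not given in the sources used here. Duplicates are not independent molecules.

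Peaks overlapping by at least 1 bp were merged (Python 3.11.15, pandas 2.3.3, scipy 1.17.1), and the steps were tested on simulated data and against bedtools 2.31.1. Distances used 19126 protein-coding genes of the RefSeq table (GRCh38.p14), a few of which carry positions that look like those of alternate scaffolds. Each library was 1 group from its labels. Ratios were called at 2-fold without a test; an additive fit of vector and prefix on log2 heights centred per library (limma 3.58.1, trended variance, R 4.3.3) was added after seeing the data. Named regions were the 8 tallest, 5 farthest, 3 widest, 6 per direction for PHF19 and 5 per direction for the IFN prefix by the smaller of both ratios (mean height at least 1 fragment per M), and the 4 fullest deserts; the NPVF to NFE2L3 desert, the LINC00299 neighbours, the region beside MIR3660, the LINC03000 start and the split at 3 fragments per M were chosen after their values were seen. The members and lists were chosen with earlier results of these data known. 1 region near the distance limit is not reported here.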

Additional observations from a re-analysis of the deposited data

Results flagged for a closer look

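In 1 desert region the PHF19 ratios lay on opposite sides of 0 in the 2 pairs, each with an interval that excluded 0. This was chr5:6965819-6966989, 209 kb from TENT4A, with 0.550 fragments per M in IFN PHF19 overexpression, 1.06 in IFN empty vector, 1.65 in PHF19 overexpression and 0.877 in empty vector. Its log2 ratio was -1.09 (-2.28 to -0.08) in the IFN-prefixed pair and 1.02 (0.20 to 1.86) in the unprefixed pair. The IFN PHF19 overexpression value rests on 9 fragments, and the difference between the pairs was not tested.

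Desert regions without a peak in all libraries were outside the comparisons, and some were called in both libraries of a vector and in neither of the other. There were 64 called only in both PHF19 overexpression libraries and 588 called only in both empty vector libraries, of 5244 merged regions beyond 200 kb (1.22% and 11.2%), against 0.534% and 8.4% of the 66609 nearer regions. The empty vector libraries are the deeper of each pair, and the part of depth in this count was not tested. The tallest of the 588, chr2:13558216-13558936, lies 815 kb from TRIB2, with 6.68 fragments per M in IFN empty vector and 5.55 in empty vector, and the next, chr3:83230566-83232394 near GBE1, had 3.57 and 3.98. Among the 64, the region after chr2:8238841-8240035 near ID2 was chr2:18819471-18819817 near NT5C1B, with 3.11 in IFN PHF19 overexpression and 1.65 in PHF19 overexpression.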

How the results depend on the processing

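The number of desert regions was 2848 beyond 100 kb, 478 beyond 500 kb, 58 with distance to every annotated gene and 1040 where library peaks had to cover at least 50% of the region. The median log2 ratio for PHF19 in the IFN-prefixed pair was -0.14 beyond 500 kb, -0.17 with every annotated gene, -0.14 for mean heights from 1 fragment per M up, and turned to 0.043 without centring, since the centring constant is larger than the median. In the unprefixed pair it was -0.036 beyond 500 kb, -0.093 without centring, -0.10 centred within 10 height classes and -0.057 for mean heights from 1 up. For IFN PHF19 overexpression over PHF19 overexpression it was 0.18 without centring. For IFN empty vector over empty vector it was 0.14 with every annotated gene, 0.070 without centring, 0.084 within height classes and 0.095 centred on regions within 2.5 Mb.

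The share past 2-fold in either direction was 10.3% for PHF19 in the IFN-prefixed pair, and 12.1% with every annotated gene and 8.75% with the cover of 50%. In the unprefixed pair it was 10.6%, and 8.81% with a q of at most 1e-05, 8.46% with the cover of 50% and 8.88% centred on regions within 2.5 Mb. For IFN PHF19 overexpression over PHF19 overexpression it was 3.55%, and 1.67% with the stricter q, 2.60% with the cover and 4.69% without centring. For IFN empty vector over empty vector it was 1.71%, and 3.45% with every annotated gene, 0.760% with the stricter q, 1.15% with the cover, 0.951% without centring, 0.887% within height classes and 0.775% for mean heights from 1 up. The cause of these moves was not tested. Of 96 recomputed values the other 65 stayed within the interval of the main value, or within 1.5 times of it for the number of regions, those without antigen receptor segments and without LOC genes included, which were chosen after seeing the data.

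Centred on regions within 2.5 Mb, 33 regions were at least 2-fold lower in both PHF19 pairs, 30 of them among the 42, and 15 higher, 13 of them among the 24. The labels give no replicate numbers to pair libraries by; the additive fit, added after seeing the data, pairs them by IFN prefix and called 164 regions higher and 226 lower with PHF19. No replicate was left out, since each group holds 1 library. Depth limits low regions most: the lowest called pileup in the PHF19 libraries was 8 fragments.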

Other observations

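Of all 106 deserts with at least 5 regions, those described above included, 47 had a median below 0 and 30 a median above 0 in both PHF19 pairs. The 13 regions between CADM1 and BUD13, a splicing factor gene, had medians of 0.23 in the IFN-prefixed and 0.39 in the unprefixed pair. The 11 between TRIB1, a pseudokinase gene, and LRATD2 on chromosome 8 had 0.11 and 0.32. Regions of that chromosome outside deserts had medians of 0.26 and 0.29. The 10 regions between an uncharacterised gene and CDH6, a cadherin gene, had -0.58 and -0.52, and the 10 between CD83, a surface protein gene of activated lymphocytes and dendritic cells, and JARID2, which encodes an accessory factor of Polycomb repressive complex 2, had -0.37 and -0.69. The 10 between MYT1L, a neural zinc finger gene, and EIPR1 had 0.23 and 0.23. The deserts named in this paragraph fall under none of the rules for named regions, and their ratios were not centred on neighbouring regions.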
